A study of Mus musculus with 12 samples.

Results

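T and B lymphocyte genes were followed in whole kidneys of wild-type and FAN1KO mice with and without cisplatin. The 9 genes were Cd3e, Cd3g, Cd4 and Cd8a of T cells, Nkg7 of cytotoxic T cells and natural killer cells, Cd79a and Ms4a1 of B cells, and Jchain and Ighm of antibody production. They were chosen by name and found by their NCBI Gene number among the 27179 genes measured, and all 9 were present. Of these, 8 reached a level of 1 TPM, a unit in which the transcripts of each library share a fixed total, in at least 3 of the 12 libraries, and Ms4a1 did not. Lymphocyte RNA was scarce in these kidneys. Cd3e was at 0.153 to 2.85 TPM over the 12 libraries, and Jchain and Ighm were the only members at 1 TPM or more in all of them.

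The RNA came from kidneys of 12 mice, 3 in each of 4 groups, aged 8 to 12 weeks and of a background that the labels give as mixed. The wild-type saline and wild-type cisplatin groups carried wild-type Fan1. The FAN1KO saline and FAN1KO cisplatin groups had the genotype {Gamma}GT1-Cre;Fan1-/-, in which Cre from the Ggt1 promoter deletes Fan1, a DNA repair nuclease, in proximal tubule cells. Lymphocytes of the FAN1KO mice are therefore not the cells this Cre targets. Cisplatin was given intraperitoneally at 2 mg/kg once a week for 5 weeks, and the other mice received saline. Whether the wild-type mice carried the Cre is not given in the sources used here. In bulk kidney RNA, more lymphocytes and more RNA per lymphocyte cannot be told apart.

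T cells recognise antigen through a receptor whose signal passes into the cell by the CD3 chains. The coreceptors CD4 and CD8 bind the molecules that present the antigen and mark helper and cytotoxic T cells. B cells signal through a membrane antibody held together with CD79a and CD79b. After activation they become plasma cells, which secrete antibody, and the joining chain links antibodies of the IgA and IgM classes into larger complexes. In kidneys, such cells are few in health and gather between the tubules in many forms of chronic injury.

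The starts of 4 members are shown because they stand for the main roles among the members. Cd3e and Cd3g are T cell genes of the same chromosome region, and Cd79a and Jchain stand for B cells and antibody secretion. The sequences are RefSeq promoters of build GRCm38.p6, from 250 bases before the transcription start to 30 bases after it, read 5′ to 3′ on the strand of the gene. They lie at chr9:45009582-45009861 for Cd3e, chr9:44980402-44980681 for Cd3g, chr7:24897247-24897526 for Cd79a and chr5:88527868-88528147 for Jchain. Capitals mark the letters CAGGTG, an E-box that E proteins of lymphocytes can bind, and AGGAAGT, a core bound by factors of the ETS family, each searched on both strands. None of the marked matches overlapped another.
Cd3e: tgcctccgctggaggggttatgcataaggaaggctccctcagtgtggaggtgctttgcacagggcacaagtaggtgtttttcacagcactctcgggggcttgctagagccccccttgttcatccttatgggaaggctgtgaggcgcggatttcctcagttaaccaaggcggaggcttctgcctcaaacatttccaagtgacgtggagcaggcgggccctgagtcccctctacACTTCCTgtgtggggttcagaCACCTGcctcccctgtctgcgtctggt
Cd3g: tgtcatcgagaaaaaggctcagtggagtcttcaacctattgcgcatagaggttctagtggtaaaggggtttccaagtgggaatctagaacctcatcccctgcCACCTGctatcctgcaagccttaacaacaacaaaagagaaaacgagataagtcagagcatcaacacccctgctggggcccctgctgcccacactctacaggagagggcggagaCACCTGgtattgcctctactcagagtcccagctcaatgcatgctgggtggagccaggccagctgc
Cd79a: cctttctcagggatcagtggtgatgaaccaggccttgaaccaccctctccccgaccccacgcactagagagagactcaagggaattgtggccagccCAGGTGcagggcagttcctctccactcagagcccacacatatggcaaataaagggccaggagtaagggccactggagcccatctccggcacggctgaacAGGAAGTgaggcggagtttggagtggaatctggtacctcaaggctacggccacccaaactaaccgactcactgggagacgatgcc
Jchain: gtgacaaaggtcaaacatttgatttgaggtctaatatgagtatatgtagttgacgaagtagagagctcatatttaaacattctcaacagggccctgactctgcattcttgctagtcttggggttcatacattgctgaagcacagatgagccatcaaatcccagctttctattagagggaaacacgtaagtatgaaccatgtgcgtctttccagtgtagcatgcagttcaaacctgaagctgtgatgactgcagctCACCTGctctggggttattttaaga
CAGGTG was in the windows of 4 of the 6 members that had one, the 4 shown, and not in those of Cd8a and Nkg7. It was in 19.1% of all 32851 promoters of the same length. In Cd3g it occurred at 2 positions, starting 148 and 35 bases before the start of transcription. AGGAAGT was found in Cd3e and Cd79a, against 8.65% of all promoters. The octamer ATGCAAAT, present in 1.69% of promoters, was in none of the windows of the 6 members that had one. TGTGGT, the core of the motif that Runx factors bind, was in 15.6% of promoters and among the members only in that of Nkg7. These matches describe letters only. Promoters of Cd4, Ms4a1 and Ighm were not used here.

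Values in TPM are relative to all RNA in a library. Per library the values rest on 37201911 to 82946962 reads, worked out from the smallest steps between TPM values, and 1 read in a gene of 1 kilobase was worth 0.02 to 0.0479 TPM. Fan1 was at 1.17 to 2.28 TPM in FAN1KO saline and 1.98 to 3.80 TPM in wild-type saline kidneys. Under cisplatin it was at 1.55 to 3.51 TPM in FAN1KO and 2.33 to 3.57 TPM in wild-type kidneys, so its level in whole kidney did not check the genotype labels. RNA of Y-linked genes was found in 1 library per group, namely replicate 3 of wild-type saline and of FAN1KO cisplatin and replicate 1 of FAN1KO saline and of wild-type cisplatin. Hemoglobin and other erythroid markers summed to 15.7 to 88.2 TPM in FAN1KO cisplatin kidneys and to 546 to 6589 TPM in the other 9 libraries. Of the markers in that sum, Alas2 and Slc4a1 were chosen for mention after their values were seen. Alas2 was at 0.315 to 1.01 TPM in FAN1KO cisplatin kidneys and at 3.53 to 39.5 TPM in the other 9 libraries. Slc4a1 overlapped between the groups. It was at 9.13 to 17.2 TPM in FAN1KO cisplatin kidneys, where the globin gene Hbb-bs was at 0.524 to 5.08 TPM. Which cells made Slc4a1 was not tested. The part of blood content in the results below was not tested.

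**Figure D1:**
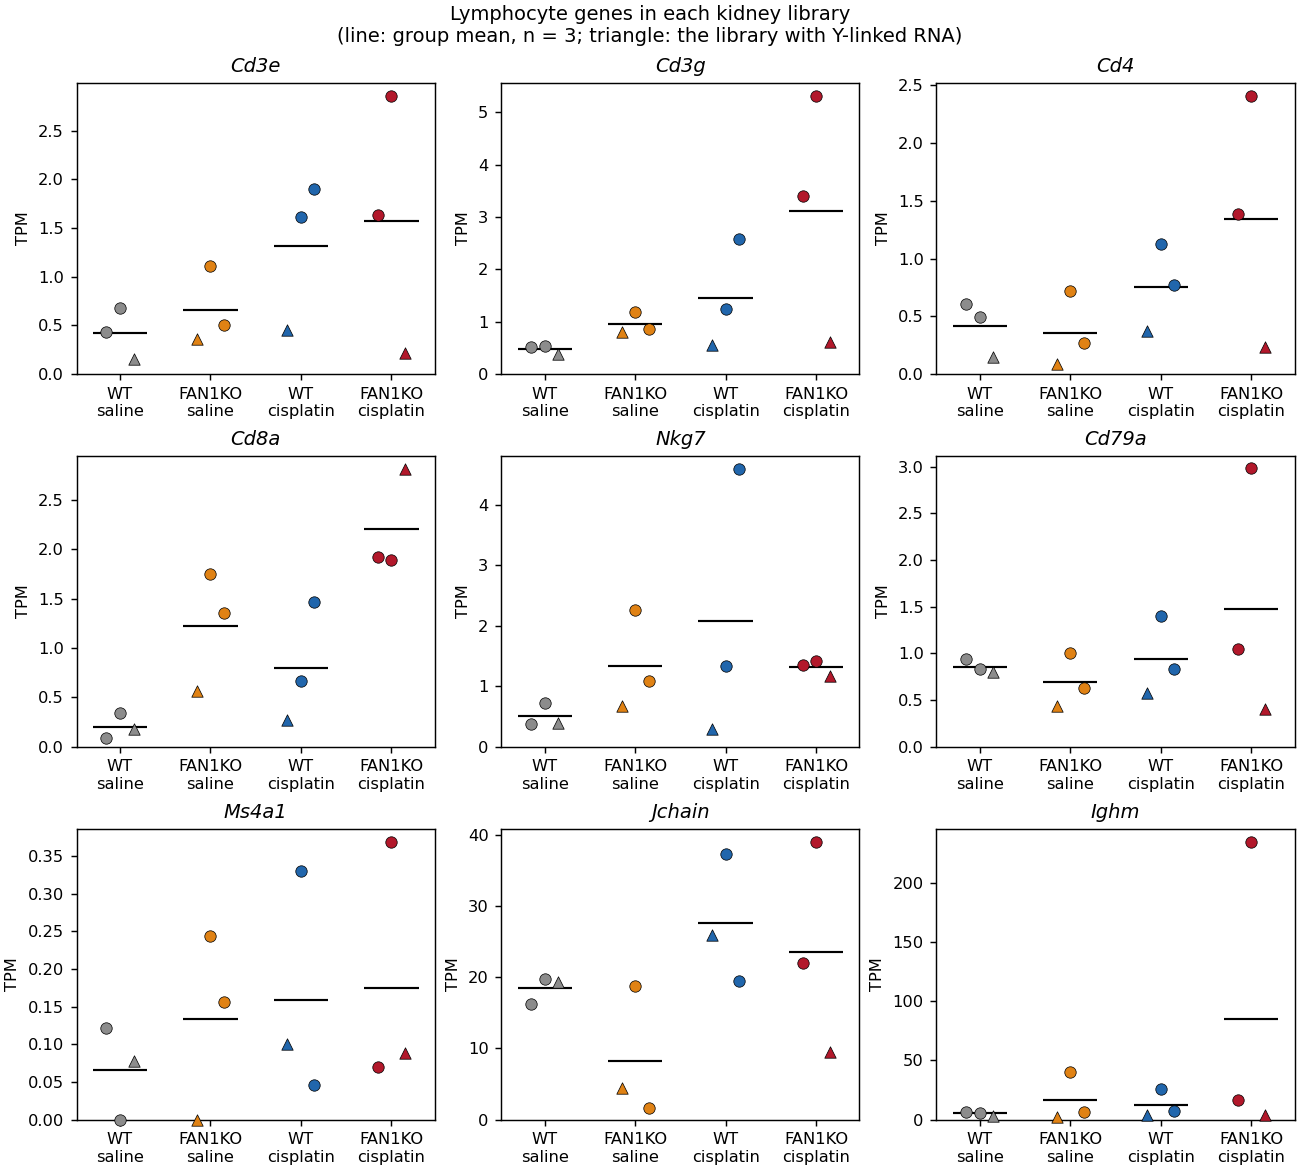
TPM of the 9 lymphocyte genes (vertical axes, each with its own scale from 0) in the 4 groups of 3 kidneys, with 1 point per library, a line at the group mean and a triangle for the library with Y-linked RNA. FAN1KO cisplatin replicate 2 is the highest library for 7 of the 9 genes, and Cd8a is the one whose FAN1KO cisplatin libraries, at 1.89 to 2.81 TPM, all lie above the other 3 groups.

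Cd3e and Cd3g encode chains of the CD3 complex, which carries the signal of every T cell receptor. Cd3e (12501, chr9:44998735-45009663) was at 0.435, 0.678 and 0.153 TPM in wild-type saline kidneys and at 0.358, 1.11 and 0.501 TPM in FAN1KO saline kidneys. After cisplatin it was at 0.453, 1.61 and 1.90 TPM in wild-type and at 1.63, 2.85 and 0.220 TPM in FAN1KO kidneys. The highest 4 values were thus all from cisplatin kidneys, 2 of each genotype, while the remaining library of each cisplatin group stayed within the saline range. The lowest cisplatin value, in FAN1KO replicate 3, rests on 7 reads. Cd3g (12502, chr9:44969572-44980431), which ends 18304 bases from Cd3e, showed the same order of libraries in the FAN1KO groups. It was at 0.519, 0.538 and 0.390 TPM in wild-type saline, 0.803, 1.19 and 0.860 TPM in FAN1KO saline, 0.549, 1.24 and 2.57 TPM in wild-type cisplatin and 3.41, 5.31 and 0.617 TPM in FAN1KO cisplatin kidneys. FAN1KO cisplatin replicate 3 was lower than every FAN1KO saline library for both genes, while replicates 1 and 2 were higher than all of them.

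Cd4 encodes the coreceptor of helper T cells, and it is also made by some macrophages and dendritic cells. Cd4 (12504, chr6:124864693-124888247) was at 0.606, 0.492 and 0.148 TPM in wild-type saline and at 0.0885, 0.717 and 0.271 TPM in FAN1KO saline kidneys. It was at 0.373, 1.13 and 0.773 TPM in wild-type cisplatin and at 1.39, 2.40 and 0.233 TPM in FAN1KO cisplatin kidneys. Across the 12 libraries, log2(TPM + 1) of Cd4 followed that of Cd3e with a Pearson r of 0.923, and Cd3g followed Cd3e with 0.912. These are descriptions over 12 libraries that share depth and group. The 3 genes most like Cd3e among all genes tested were Cxcr3 (r = 0.927), a chemokine receptor of activated T cells, Cd4, and Slc10a6 (r = 0.920), a transporter of steroid sulfates. Cxcr3 was at 0.0621 to 0.316 TPM in wild-type saline and at 1.49, 2.05 and 0.505 TPM in FAN1KO cisplatin kidneys.

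In the FAN1KO mice, cisplatin kidneys had mean TPM of Cd3e, Cd3g and Cd4 that were 2.39, 3.28 and 3.74 times those of saline kidneys, but the groups overlapped. On the log2(TPM + 1) scale, which understates changes of genes this low, the differences were 0.51 ± 0.41 (SE, n = 3 and 3) for Cd3e, 0.87 ± 0.44 for Cd3g and 0.69 ± 0.35 for Cd4. With limma over all 14972 genes tested and Benjamini-Hochberg adjustment, their adjusted p was 0.339, 0.138 and 0.134. None of the 8 tested members passed 0.05 in this comparison, although 39.8% of all genes did, and 7426 of the 14972 genes had an unadjusted p under 0.05. Without FAN1KO cisplatin replicate 3, the library with Y-linked RNA, the log2 differences were 0.97 for Cd3e, 1.44 for Cd3g and 1.10 for Cd4, with adjusted p of 0.0458, 0.00706 and 0.0140. Jchain passed too (adjusted p = 0.0277), so that 4 of 8 members were higher, where 36% of all genes tested were. With the level of Y-linked RNA as a covariate, Cd3g, Cd4 and Jchain were higher (adjusted p = 0.0327, 0.0152 and 0.0375), where 52.9% of all genes were. In the 8 libraries without Y-linked RNA, a fit added after seeing the data, Cd3e, Cd3g and Cd4 were higher, where 44.4% of all genes were. With the replicate number as a block the 1 member called was Jchain, beside 32% of all genes.

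In the other fits added after seeing the data, Cd3g, Cd4 and Jchain were called by voom on recovered reads with the Y-linked covariate, beside 48.5% of all genes. Cd4 alone was called with median-ratio scaling and the covariate, beside 23.7%.

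In wild-type mice, the same 3 genes had means of 3.13, 3.01 and 1.82 times the saline level after cisplatin. Their log2 differences were 0.66 ± 0.41, 0.64 ± 0.44 and 0.30 ± 0.35, and limma's adjusted p rounded to 1 for each. No member passed the threshold, and only 0.0601% of all genes did, with 449 genes at an unadjusted p under 0.05. Cd3g was the 1 tested member whose 3 wild-type cisplatin values all lay above the 3 saline values, a pattern held by 5.2% of genes. Its closest values were 0.549 TPM on 19 reads in cisplatin replicate 1 and 0.538 TPM on 13 reads in saline replicate 2. In that saline library 3 reads were worth 0.124 TPM, so the separation is within counting error. The genotype by treatment interaction, which asks whether cisplatin changed a gene differently in FAN1KO and wild-type kidneys, had adjusted p of 0.897 for Cd3e, 0.853 for Cd3g and 0.662 for Cd4. No tested member passed it, against 6.24% of all genes, and 3751 genes had an unadjusted p under 0.05.

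Between genotypes under cisplatin, Cd3e differed by 0.06 on the log2 scale with a 95% interval of -0.84 to 0.96 (limma adjusted p = 0.932). That interval spans changes in either direction. Cd3g differed by 0.62 (-0.36 to 1.60, adjusted p = 0.329) and Cd4 by 0.32 (-0.45 to 1.09, adjusted p = 0.535). Without FAN1KO cisplatin replicate 3, Cd3g was higher by 1.19 (adjusted p = 0.0262), where 19.7% of all genes were. In the 8 libraries without Y-linked RNA, a fit added after seeing the data, it was higher by 0.90 (limma adjusted p = 0.0375). There 28.9% of all genes were higher, and Cd3g was the only member called.

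**Figure D2:**
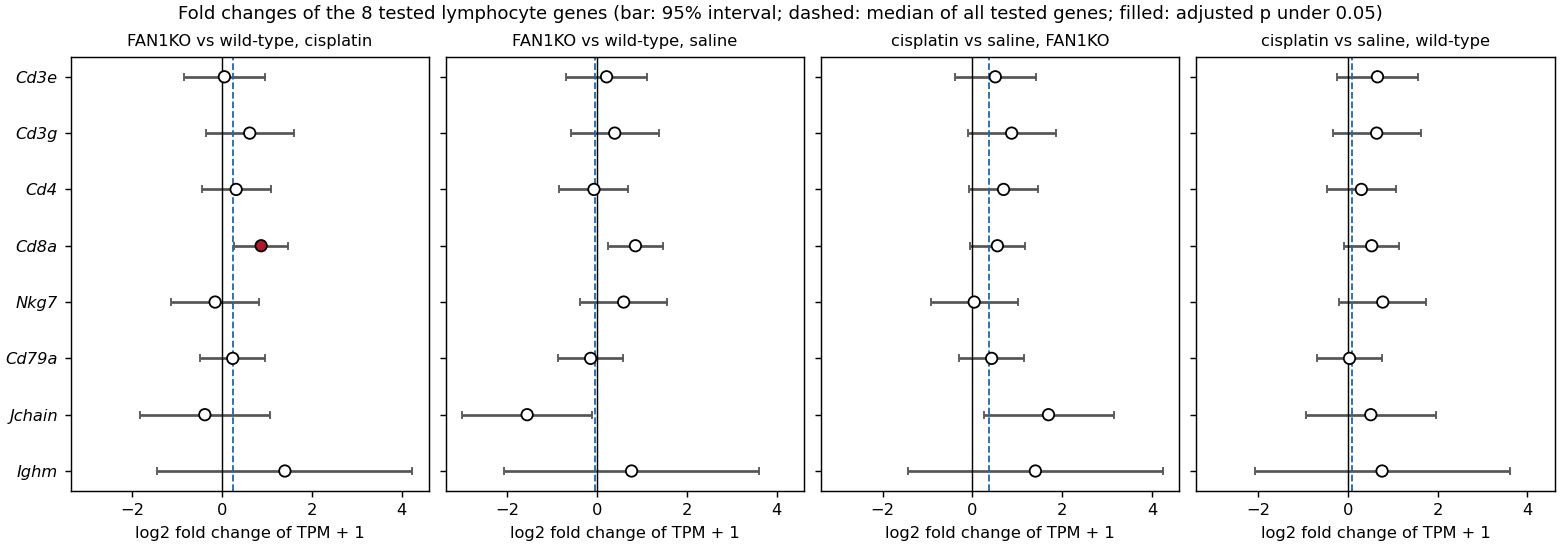
Difference in log2(TPM + 1) for the 8 tested members (points) with 95% intervals (bars) in the 4 comparisons of groups of 3, against no change (solid line) and the median of all genes tested (dashed line). Cd8a between genotypes under cisplatin, at 0.87, is the filled point with an adjusted p under 0.05, and the widest intervals are those of Ighm.

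Cd8a, which encodes the alpha chain of the CD8 coreceptor, was the member with the clearest difference between genotypes. Cd8a (12525, chr6:71373427-71379171) was at 0.0899, 0.338 and 0.185 TPM in wild-type saline and at 0.569, 1.75 and 1.35 TPM in FAN1KO saline kidneys. Under cisplatin it was at 0.274, 0.666 and 1.47 TPM in wild-type and at 1.92, 1.89 and 2.81 TPM in FAN1KO kidneys. The genotypes did not overlap under either treatment, and in FAN1KO mice neither did the treatments, as for 47.4% of all genes. The mean was 2.75 times as high in FAN1KO as in wild-type kidneys under cisplatin and 6.00 times as high under saline.

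The log2 difference between genotypes under cisplatin was 0.87 ± 0.28 (SE, n = 3 and 3), and limma's adjusted p was 0.0428. This made Cd8a the only 1 of 8 tested members called, where 23.9% of all genes were, 19.6% as higher. Its 3 FAN1KO values all lay above the wild-type values, as did those of 35.7% of genes. Under saline the difference was of like size, 0.85 ± 0.28, with an adjusted p of 0.320 in a comparison in which 0.768% of genes and no member passed (1255 genes at an unadjusted p under 0.05). Cd8a and Cd3g were there the 2 tested members with FAN1KO values all above wild-type values, a pattern held by 4.62% of genes. The exact permutation test of 3 against 3 mice gave Cd8a a two-sided p of 0.1 under both treatments, the smallest it can give. The interaction was 0.02 (95% interval -0.84 to 0.88, adjusted p = 0.978).

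The call for Cd8a was close to the threshold. It was lost with a pseudocount of 0.1, median-ratio scaling, or erythroid and mitochondrial genes left out. The 6 cisplatin libraries alone or a minimum fold change of 2 also lost it. So did the 8 libraries without Y-linked RNA, a fit added after seeing the data. The call was also lost in 9 of the 12 fits that left out 1 library. It was kept without FAN1KO saline replicate 1 or 2 or wild-type cisplatin replicate 3. Over all 26 alternatives the log2 difference was 0.52 to 1.80 and the adjusted p 0.0155 to 0.153. The direction was the same in all 26.

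Cd8a followed Cd3e, Cd3g and Cd4 less closely than these followed each other, as a description over the 12 libraries. The CD8 coreceptor of most cytotoxic T cells pairs the alpha chain with a beta chain from Cd8b1, whereas some dendritic cells carry the alpha chain alone. Cd8b1, chosen for display after its values were seen, was at 0.309, 0.239 and 0.169 TPM in wild-type saline, 0.0484, 0.355 and 0.395 TPM in FAN1KO saline, 0.251, 0.544 and 1.82 TPM in wild-type cisplatin and 0.473, 0.472 and 0.191 TPM in FAN1KO cisplatin kidneys. These values rest on 2 to 54 reads a library, and Cd8b1 did not reach the level needed for the test. Level per length of Cd8a over that of Cd8b1 was 0.291 to 1.41 in the 6 wild-type libraries and 3.43 to 14.7 in the 6 FAN1KO libraries. The 2 ranges did not overlap, and this ratio was not tested because it was formed with the values in view. In FAN1KO cisplatin replicate 3, Cd8a was at its highest while Cd3e was at 0.220 TPM, a ratio of 12.8, whereas in the other 11 libraries Cd8a was 0.206 to 2.70 times Cd3e. Over the 12 libraries r was 0.443 between Cd8a and Cd3e, 0.595 with Cd3g, 0.376 with Cd4, 0.661 with Nkg7 and 0.307 with Cd8b1.

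Markers of macrophages and dendritic cells were compared with Cd8a, since some of these cells carry its product. Of the 12 listed, 9 were tested and 3 were called between genotypes under cisplatin as higher in FAN1KO, namely Cd14, Cd209a and Cd68, beside 19.6% of all genes. Their summed TPM was 251 to 562 in FAN1KO cisplatin and 74.4 to 249.98 in wild-type cisplatin kidneys. Under saline, where Cd8a was also without overlap, the sums were 49.7 to 127 TPM in FAN1KO and 70.0 to 124 TPM in wild-type kidneys. The median log2 difference of the 9 genes there was 0.053. Markers near 1 TPM weigh little in these sums, since Csf1r alone was at 17.1 to 43.1 TPM in FAN1KO saline kidneys. FAN1KO cisplatin replicate 3, the highest library for Cd8a, had the lowest sum of its group. Csf1r, a macrophage growth factor receptor, differed by -0.34 under cisplatin (adjusted p = 0.467). Siglech, a marker of plasmacytoid dendritic cells that was too low for the test, was at 0.112 to 0.160 TPM in FAN1KO and 0.247 to 0.605 TPM in wild-type cisplatin kidneys. Both were chosen after their values were seen. No marker on this list was at 0 in any library. Cd209a, a lectin of dendritic cells, was at 0.211, 0.399 and 0.0673 TPM in wild-type saline and at 1.94, 4.17 and 1.21 TPM in FAN1KO saline kidneys. Under cisplatin it was at 0.239, 0.641 and 0.742 TPM in wild-type and at 6.76, 0.961 and 3.13 TPM in FAN1KO kidneys, so all 6 FAN1KO values lay above all 6 wild-type values. Its log2 difference under cisplatin was 1.38 ± 0.45 with an adjusted p of 0.0474. The r between Cd8a and Cd209a was 0.763 over the 12 libraries. Other listed markers, chosen after their values were seen, overlapped between genotypes under cisplatin. Xcr1 was at 0.162 to 0.655 TPM in FAN1KO and 0.120 to 0.438 TPM in wild-type kidneys, with its FAN1KO lowest in replicate 3. Flt3 was at 0.195 to 0.980 against 0.0728 to 0.340 TPM, and Itgax at 2.33 to 8.60 against 0.911 to 2.90 TPM. Under saline Itgax and Xcr1 did not overlap between genotypes. Itgax was at 0.536 to 1.45 TPM in FAN1KO and 0.233 to 0.442 TPM in wild-type saline kidneys. Xcr1 was at 0.216 to 0.498 against 0.143 to 0.190 TPM. Flt3, at 0.131 to 0.675 against 0.0437 to 0.174 TPM, overlapped there, and so did Siglech. The part of these cells in the Cd8a result was not tested.

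**Figure D3:**
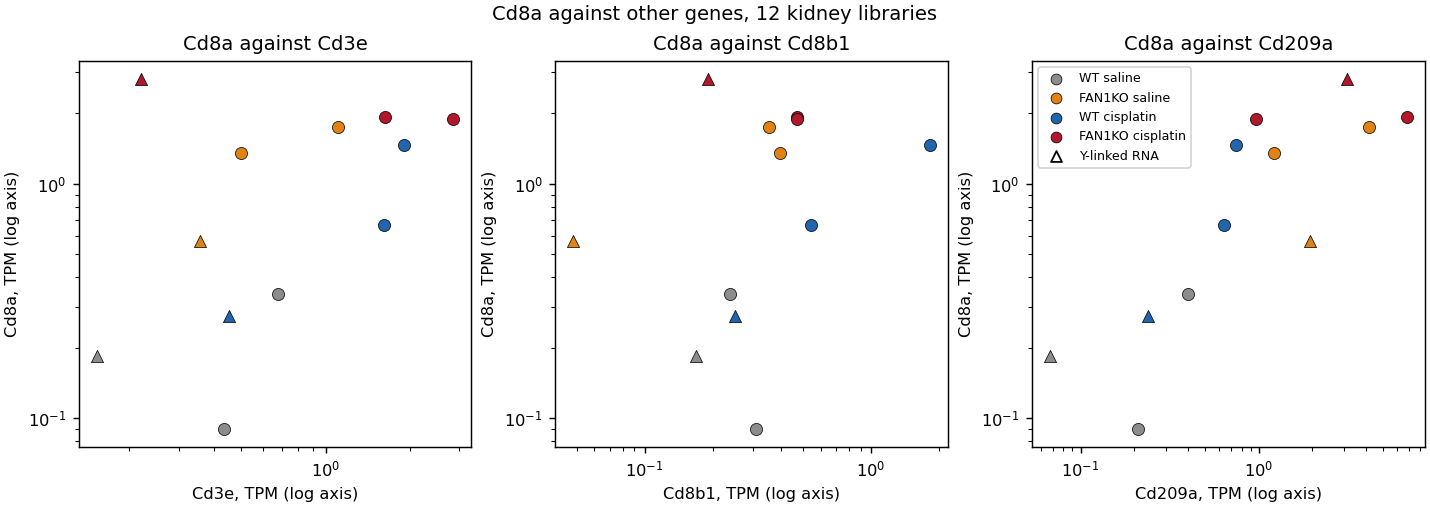
Cd8a (vertical log axes, TPM) against Cd3e, Cd8b1 and Cd209a (horizontal log axes, TPM), with 1 point per library coloured by group and triangles for the libraries with Y-linked RNA. FAN1KO cisplatin replicate 3 stands apart in the plot against Cd3e, with Cd8a at 2.81 TPM and Cd3e at 0.220 TPM. It lies with the other FAN1KO libraries in the plot against Cd209a. Against Cd8b1, its ratio of 14.7 is near the 11.8 of FAN1KO saline replicate 1, which rests on 2 Cd8b1 reads.

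Nkg7 encodes a membrane protein of the cytotoxic granules of T cells and natural killer cells. Nkg7 (72310, chr7:43437138-43438246) was at 0.385, 0.729 and 0.393 TPM in wild-type saline and at 0.674, 2.27 and 1.08 TPM in FAN1KO saline kidneys. It was at 0.291, 1.34 and 4.59 TPM in wild-type cisplatin and at 1.35, 1.42 and 1.17 TPM in FAN1KO cisplatin kidneys. The highest level of all was therefore in wild-type cisplatin replicate 3, which also had the highest Cd8b1. The FAN1KO cisplatin libraries lay close together, unlike those for Cd3e, Cd3g and Cd4, and within the range of the FAN1KO saline libraries. The log2 difference between genotypes under cisplatin was -0.15 ± 0.44 (adjusted p = 0.829), and between treatments in FAN1KO mice 0.04 ± 0.44 (adjusted p = 0.952). The genes most like Nkg7 across libraries were Snora74a (r = 0.875), Herpud1 (0.847) and Ccl27a (0.826), none of them a lymphocyte marker.

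Cd79a and Ms4a1 mark B cells. Cd79a encodes a signalling chain of the B cell receptor, and Ms4a1 encodes CD20. Cd79a (12518, chr7:24897497-24901858) was at 0.942, 0.829 and 0.797 TPM in wild-type saline and at 0.439, 1.01 and 0.633 TPM in FAN1KO saline kidneys. It was at 0.579, 1.40 and 0.829 TPM in wild-type cisplatin and at 1.04, 2.99 and 0.408 TPM in FAN1KO cisplatin kidneys. All groups overlapped, and the highest and lowest of the 12 values were both from FAN1KO cisplatin kidneys. Its log2 difference was 0.24 ± 0.33 between genotypes under cisplatin (adjusted p = 0.623) and 0.43 ± 0.33 between treatments in FAN1KO mice (adjusted p = 0.320).

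Ms4a1 (12482, chr19:11249679-11266149) was too low for the test. It was at 0.122, 0 and 0.0776 TPM in wild-type saline, 0, 0.244 and 0.156 TPM in FAN1KO saline, 0.101, 0.330 and 0.0465 TPM in wild-type cisplatin and 0.0697, 0.368 and 0.0877 TPM in FAN1KO cisplatin kidneys. These are 0 to 17 reads a library. The 0 of wild-type saline replicate 2 allows a level of up to 0.0619 TPM and that of FAN1KO saline replicate 1 up to 0.0501 TPM, taking 3 reads as the limit, which covers counting error only. The exact permutation test gave a two-sided p of 0.5 to 0.8 in the 4 comparisons. Ms4a1 overlaps the lncRNA gene 4930526L06Rik, and whether strand was used in counting is not given in the sources used here.

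Jchain and Ighm stand for antibody production and were the most abundant members. Jchain encodes the joining chain of IgA and IgM. Jchain (16069, chr5:88519809-88527897) was at 16.2, 19.75 and 19.3 TPM in wild-type saline kidneys, the tightest group, and at 4.43, 18.8 and 1.64 TPM in FAN1KO saline kidneys. After cisplatin it was at 26.0, 37.2 and 19.4 TPM in wild-type and at 22.0, 39.0 and 9.42 TPM in FAN1KO kidneys. The FAN1KO saline group held both a library at the wild-type level and the 2 lowest of all 12. In FAN1KO mice the log2 difference between cisplatin and saline was 1.69 ± 0.65 with an adjusted p of 0.0614, and it passed without FAN1KO saline replicate 2 (adjusted p = 0.00650, where 32.6% of all genes were higher). Between genotypes under saline it was -1.56 ± 0.65, with an unadjusted p of 0.0372 and an adjusted p of 0.538. Under cisplatin it was -0.38 ± 0.65 (adjusted p = 0.703).

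The genes most like Jchain were Igkc (r = 0.970), the constant part of the kappa light chain, Igha (r = 0.944), the constant part of the IgA heavy chain, and 1700086P04Rik (r = 0.918). Igkc was at 325, 385 and 438 TPM in wild-type saline and at 100.05, 426 and 43.2 TPM in FAN1KO saline kidneys, and at 580, 627 and 350 TPM and 496, 1397 and 300 TPM in wild-type and FAN1KO kidneys under cisplatin. Igkc was 16.8 to 35.8 times Jchain per length in every library. Igha was at 150.5, 214 and 198 TPM in wild-type saline and at 41.6, 88.7 and 18.5 TPM in FAN1KO saline kidneys. Neither Igkc nor Igha was called between genotypes under saline. In FAN1KO mice both were higher after cisplatin, Igkc by 2.26 ± 0.74 on the log2 scale (adjusted p = 0.0325) and Igha by 2.45 ± 0.47 (adjusted p = 0.00283). Of all genes tested, 34.9% were called higher there. In that comparison the saline group was the low one, since the FAN1KO cisplatin libraries, with Igha at 259, 311 and 149 TPM, lay near the wild-type cisplatin libraries at 243, 307 and 193 TPM.

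Ighm encodes the constant part of the heavy chain of IgM, the class of naive B cells and of the first antibody response. Ighm (16019, chr12:113418826-113422730, in the heavy chain locus) was at 6.50, 5.85 and 3.31 TPM in wild-type saline and at 2.55, 40.2 and 6.44 TPM in FAN1KO saline kidneys. It was at 4.2, 25.6 and 6.84 TPM in wild-type cisplatin and at 16.2, 234 and 3.96 TPM in FAN1KO cisplatin kidneys. A single library of each of 3 groups, each time replicate 2, stood above the rest. FAN1KO cisplatin replicate 2 was 91.9 times the lowest of the 12. Its log2 difference between genotypes under cisplatin was 1.40 ± 1.28 (adjusted p = 0.453), and without that library it was -0.15 (adjusted p = 0.936). The genes most like Cd79a were Ighm (r = 0.925), Cd4 (0.907) and the kappa V segment Igkv4-70 (0.880), and that library was the highest for all of them.

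The classes of heavy chain differed between libraries. Among the 7 constant genes Ighm, Ighd, Ighg1, Ighg2b, Ighg2c, Ighg3 and Igha, Igha held 88.7% to 97.6% of the summed TPM in the 6 wild-type libraries, and Ighm held 1.63% to 7.40%. In FAN1KO saline replicate 2 Ighm held 21.7% and the Ighg genes 30.5%, with Ighg3 at 26.9 TPM and Ighg2c at 22.3 TPM. In FAN1KO cisplatin replicate 2 Ighm held 38.2% and the Ighg genes 10.8%, with Ighg2c at 38.5 TPM. In FAN1KO saline replicate 3 Ighm held 23.5% of a sum of 27.4 TPM, the lowest of all libraries. The other 3 FAN1KO libraries had 90.3% to 96.5% from Igha, within the range of wild-type kidneys. The constant genes of the Ighg classes resemble each other, and the authors' counting could split reads between them.

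**Figure D4:**
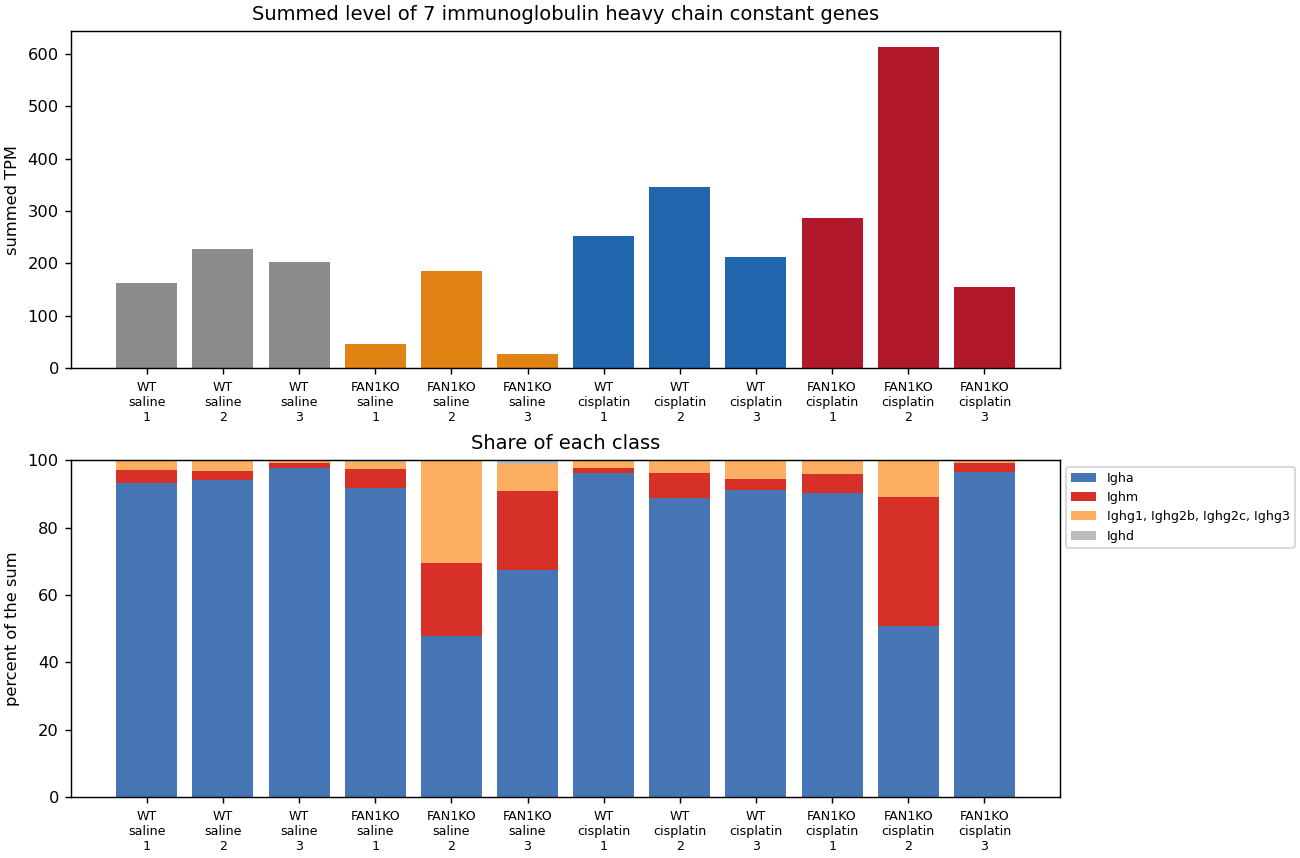
Summed TPM of 7 immunoglobulin heavy chain constant genes in each of the 12 libraries (upper bars, from 0) and the percent of that sum from each class (lower stacked bars). The sum is 27.4 to 613 TPM, and the share of Igha is below 70% in FAN1KO saline 2, FAN1KO saline 3 and FAN1KO cisplatin 2.

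The other genes of these cell types were read from lists of T cell, cytotoxic, B cell, plasma cell, and homing and survival genes. Between genotypes under cisplatin, 19.6% of all genes tested were called higher in FAN1KO. Of 24 other T cell genes 11 were tested, and Tcf7, a transcription factor of T cells, was the 1 called there, as higher in FAN1KO. It was at 4.98, 5.02 and 2.06 TPM in FAN1KO and at 0.647, 2.00 and 1.54 TPM in wild-type cisplatin kidneys (1.04 ± 0.34 on the log2 scale, adjusted p = 0.0490). Cd3d, the delta chain of CD3, differed by 0.53 ± 0.29 (adjusted p = 0.211) and Bcl11b, another T cell transcription factor, by -0.50 ± 0.21 (adjusted p = 0.0988). In wild-type saline replicate 3 Bcl11b was at 1.81 TPM where Cd3e was at 0.153 TPM, and which cells made it was not tested. The median over the 11 genes was 0.46, beside 0.24 over all genes tested and 0.28 over the 8 tested members. Of 15 cytotoxic and natural killer cell genes 3 were tested and none was called. Klrd1, a receptor subunit of natural killer cells, differed by 0.57 ± 0.22 (adjusted p = 0.0878), Gzma, a granule protease, by -0.60 ± 0.25 (adjusted p = 0.101) and Ctsw, a cathepsin of cytotoxic cells, by 0.50 ± 0.47 (adjusted p = 0.465).

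Of 16 other B cell genes 4 were tested, and 1 was called between genotypes under cisplatin, where 19.6% of all genes were called higher. Blnk, an adaptor of B cell receptor signalling, was called higher in FAN1KO kidneys after cisplatin, at 42.2, 32.4 and 23.5 TPM against 9.41, 15.2 and 18.8 TPM (1.13 ± 0.32, adjusted p = 0.0306). Cd79b, the partner of Cd79a, differed by 0.86 ± 0.33 (adjusted p = 0.0848) and Cd72, a B cell receptor modulator, by 0.84 ± 0.39 (adjusted p = 0.141). All of these 3 were higher after cisplatin in FAN1KO mice, by 1.41, 1.10 and 1.39 on the log2 scale. In that comparison 3 of the 4 tested were called higher, beside 34.9% of all genes. Blnk was many times above Cd79a in every library, and its highest value was in FAN1KO cisplatin replicate 1, not replicate 2. Cd72, at 16.9 TPM, was also highest in FAN1KO cisplatin replicate 1. Of 15 plasma cell and immunoglobulin genes 11 were tested, and Irf4, a transcription factor of plasma cells and activated lymphocytes, was the 1 called higher, at 2.84, 1.74 and 2.33 TPM against 0.537, 1.02 and 1.04 TPM (0.82 ± 0.18, adjusted p = 0.0109). That share is below the 19.6% of all genes. Irf4 did not follow Jchain in FAN1KO cisplatin replicate 3, where Jchain was at 9.42 TPM, its lowest in that group. Derl3 differed by 0.37 ± 0.37 (adjusted p = 0.489) and Iglc2, a lambda light chain constant gene, by -0.67 ± 0.70 (adjusted p = 0.514).

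Of 21 genes that attract or sustain lymphocytes 15 were tested, and 3 of them, Icam1, Vcam1 and Il7, were called higher between genotypes under cisplatin. That share is near the 19.6% of all genes called higher there. Icam1, an adhesion molecule bound by leukocytes, was at 89.7, 82.6 and 60.2 TPM against 12.1, 28.3 and 25.3 TPM (1.84 ± 0.32, adjusted p = 0.00369). Vcam1, another adhesion molecule, was at 84.5, 66.2 and 101 TPM against 8.16, 37.6 and 35.3 TPM (1.84 ± 0.57, adjusted p = 0.0397). Il7, a survival factor of T cells, was at 4.73, 3.28 and 2.72 TPM against 0.753, 0.989 and 1.99 TPM (1.04 ± 0.24, adjusted p = 0.0124). In FAN1KO cisplatin replicate 3, where Cd3e was at saline level, Vcam1 was at its highest. Between treatments in FAN1KO mice 7 of the 15 were higher, beside 34.9% of all genes, and 1, Il15, was lower, and for wild-type mice none was called. Of 12 genes shared by all leukocytes, none was called between genotypes under cisplatin. After cisplatin in FAN1KO mice 5 of the 12 were higher, beside the same 34.9% of all genes.

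The library with Y-linked RNA was the lowest of its group in all 4 groups for Cd3e, Cd3g, Cd4, Cd79a and Ighm. These are 5 of 8 tested members, and the same held for 41.5% of all genes tested. In the fit with Y-linked RNA as a covariate, its coefficient was below 0 with a limma adjusted p under 0.05 for 4 tested members. These were Cd3e, Cd3g, Cd4 and Ighm (adjusted p = 0.00437, 0.0244, 0.00664 and 0.0325), and the same held for 49.5% of all genes. Cd79a (adjusted p = 0.0642), Nkg7 (0.0803), Cd8a (0.278) and Jchain (0.382) did not pass there, though their coefficients were also below 0. Endothelial markers moved likewise, and their sum was 37.3 to 39.5 TPM in the 3 libraries with Y-linked RNA outside the FAN1KO cisplatin group and 101 to 172 TPM in the other 6 of those groups. What else these 4 mice share was not tested. FAN1KO cisplatin replicate 2 was the highest of all 12 libraries for 6 of the 8 tested members, where it was the highest for 11.7% of all genes tested.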

How the data were processed

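Whole-kidney RNA of 12 mice was sequenced by the authors, and groups and replicate numbers follow the labels. What the authors deposited is a single table of TPM, with 27179 genes and the same total in every library. The submitters' processing notes name mm10 and limma, and the aligner, counting program and annotation are not given in the sources used here. RefSeq genes of GRCm38.p6 (mm10) gave names for 25275 genes, coordinates and promoters. Columns of other samples left out numbered 0.

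The deposited TPM move in whole-read steps, which gave back read numbers for all 14972 genes tested (tolerance 0.05 reads) and for 0 of 500 genes moved at random. They gave the depths, 37201911 to 82946962 reads per library, and 1 alternative.

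Genes that reached 1 TPM in 3 or more of the 12 libraries were tested on log2(TPM + 1) by limma 3.58.1 in R 4.3.3, with 4 group means, a mean-variance trend and Benjamini-Hochberg adjustment at 0.05. For each member a two-sided exact permutation test was added. Nothing in the labels says that the mice were litter mates, and p-values measure the spread between these mice. On simulated data for FAN1KO against wild-type under cisplatin, with 14619 genes tested, 44 of 99 genes changed 2-fold and 100 of 100 changed 4-fold were recovered, with 11 unchanged genes called. The simulated reads had the same dispersion for every gene and no effect of Y-linked RNA. Members such as Cd3e and Ighm spread more widely between mice, so these rates do not carry over to them.

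The members and lists were chosen with earlier results of these data known. The genes named are the 9 members, in each list the 3 genes with the smallest p between genotypes under cisplatin, the 3 genes most correlated with Cd3e, Nkg7, Cd79a and Jchain, Fan1 and the globins. Genes outside this rule are said to be chosen after their values were seen, and Ighg genes, Cd8b1, Il15 and V segments are such genes. Alternatives were the pseudocount, filters, scaling, samples fitted, covariates, a replicate block and each library left out. Of these, 3 were added after seeing the data. Figures were drawn with matplotlib 3.10.9, and tables were handled in Python 3.11.15 with pandas 2.3.3 and numpy 2.4.6.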

Additional observations from a re-analysis of the deposited data

Results flagged for a closer look

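Among the genes named, 6 had a genotype by treatment interaction with a limma adjusted p under 0.05, and none of them was a lymphocyte member. The interaction, on the log2(TPM + 1) scale, was 2.01 for Icam1, the adhesion molecule bound by leukocytes. It was -5.89 for Hba-a1, -6.23 for Hba-a2 and -5.88 for Hbb-bs, which are globin genes. For the proximal tubule genes Slc34a1, a phosphate transporter, and Lrp2, an uptake receptor, it was -1.44 and -1.38. Groups of 3 were too small for a test of single outlying libraries.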

How the results depend on the processing

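The replicate numbers of the labels are shared by different mice. Over all genes tested, same-numbered libraries did not deviate together (mean r 0.018, range -0.61 to 0.76), so no pairing was assumed. With the replicate block, 1 member was called between treatments in FAN1KO mice, Jchain, in place of 0, and no other member call changed.

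The number of members called between genotypes under cisplatin fell from 1 to 0 with a pseudocount of 0.1, the 6 libraries alone, median-ratio scaling, erythroid and mitochondrial genes left out, and a minimum fold change of 2. It was 0 to 1 with each library left out, and was lost without wild-type saline replicate 1, 2 or 3, FAN1KO saline replicate 3, wild-type cisplatin replicate 1 or 2, or FAN1KO cisplatin replicate 1 or 2. Without FAN1KO cisplatin replicate 3, and in the 8 libraries without Y-linked RNA (added after seeing the data), the 1 call was Cd3g in place of Cd8a. Between treatments in FAN1KO mice the number rose from 0 to 3 with the Y-linked covariate, and was 0 to 4 with each library left out. Among alternatives added after seeing the data it was 3 in the 8 libraries, 3 with voom and the covariate and 1 with median-ratio scaling and the covariate. The cause of these shifts was not tested. In both other comparisons and the interaction it stayed 0 in every alternative.

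Signs turned only where no call was made. Cd3e between genotypes under cisplatin became -0.069 (pseudocount 0.1), -0.084 (median-ratio scaling), -0.013 (erythroid and mitochondrial genes left out), -0.057 (voom) and -0.064 (median-ratio scaling with the covariate), and was -0.31 to 0.52 with each library left out. Nkg7 there became 0.029 (pseudocount 0.1) and 0.21 (voom), with -0.65 to 0.41 leaving libraries out, and between treatments in FAN1KO mice -0.18 (median-ratio scaling), -0.037 (erythroid and mitochondrial genes left out), -0.13 (8 libraries) and -0.17 (median-ratio scaling with the covariate), with -0.17 to 0.31. Cd79a between treatments in wild-type mice became -0.013 (median-ratio scaling), -0.019 (voom) and -0.0046 (median-ratio scaling with the covariate), with -0.13 to 0.18, and between genotypes under cisplatin ranged -0.17 to 0.58 with libraries left out. Jchain between genotypes under cisplatin became 0.12 (8 libraries), with -0.84 to 0.13. With libraries left out Cd4 ranged -0.011 to 0.72 between genotypes under cisplatin and -0.25 to 0.076 under saline, and Ighm -0.15 to 2.63, -0.24 to 1.53 and -0.16 to 2.63 between genotypes under cisplatin, under saline and between treatments in FAN1KO mice. Median-ratio scaling moved the median of all genes from 0.24 to -0.0039 between genotypes under cisplatin, and its calls there were 1405 higher and 1153 lower in place of 2931 and 654.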

Other observations

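Antibody V segments, which each B cell lineage selects when it rearranges its receptor genes, were spread unevenly in 1 kidney. Of 120 heavy chain V segments in the table, the 5 highest held 71.7% of their summed TPM in FAN1KO cisplatin replicate 2 and 26.1% to 47.1% in the other 11 libraries. Ighv14-2 alone was at 90.2 TPM there, 27.9% of a sum of 323 TPM, on 688 reads. Among 103 kappa V segments the 5 highest held 57.9% in that library and 32.1% to 48.9% elsewhere. Igkv4-70 (chr6:69267888-69268412) was at 141 TPM there on 1382 reads, and at 0 to 1.24 TPM in the other 11 libraries on at most 22 reads. The same library had the highest Ighm, at 234 TPM. V segments are near-identical in part, so reads could be split or misplaced between them, and no test was run on 1 library.

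Igkv1-110 was the leading kappa segment in libraries of both genotypes. It led in wild-type saline replicate 3, at 34.0 TPM, and in wild-type cisplatin replicate 3, at 38.2 TPM. Likewise it led in FAN1KO saline replicate 1, at 5.56 TPM, and in FAN1KO cisplatin replicates 1 and 3, at 26.4 and 12.1 TPM. The leading kappa segment of wild-type saline replicate 1 was Igkv16-104, at 29.8 TPM. The 5 highest heavy chain segments held their second largest share, 47.1%, in wild-type cisplatin replicate 2, where Ighv2-9 was at 27.3 TPM.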
